A study of Caenorhabditis elegans with 14 samples.

Results

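The let-7 family guide strands of *C. elegans* were let-7-5p, miR-48-5p, miR-84-5p, miR-241-5p and miR-795-5p, the strands of the let-7, mir-48, mir-84, mir-241 and mir-795 hairpins that are loaded into Argonaute. They were taken by name from the rows that the deposited miRNA count table marks as guide strands, and made up 5 of its 371 strands (214 guide strands and 157 star strands, the passenger strands). The table held 14 small RNA libraries of whole animals in the N2 background, grown at 20 °C on OP50 bacteria. They were made from *hrpk-1(tm5522)* L4 larvae (2 libraries), *hrpk-1(zen17)* L4 larvae (3), wild type L4 larvae (3), *hrpk-1(zen17)* embryos (3) and wild type embryos (3). HRPK-1 is a KH-domain RNA-binding protein, and the study asked whether it is needed to make miRNAs. zen17 is a CRISPR deletion of the locus, outcrossed repeatedly, that leaves no detectable protein. tm5522 removes part of the coding sequence and leaves a truncated protein, and the study treats it as antimorphic, so it is not a null. Nothing in the labels says that the replicates were separate cultures, and p-values then measure only the spread between these libraries, which may be technical. In RNA of whole animals, fewer cells of a type and less RNA per cell cannot be told apart.

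miRNAs of this family share a seed and act in the heterochronic pathway, the timer of larval cell fates. let-7 drives the switch from larval to adult fates at the last molt, mainly by repressing *lin-41*, and its level is known to be low in embryos and early larvae, where LIN-28 blocks its maturation. miR-48, miR-84 and miR-241 act together at an earlier larval transition by repressing *hbl-1*. For miR-795 no such role is established.

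In the WBcel235 annotation, all 5 genes were found and no hairpin overlapped another gene. mir-48 (V, 14364412 to 14364509) and mir-241 (V, 14366188 to 14366283) are neighbours on the minus strand, with 1678 bases between their hairpins. The annotated guide strands lie on the 5p side, at 14364472 to 14364494 for miR-48-5p and at 14366248 to 14366268 for miR-241-5p. The let-7 hairpin (X, 14744173 to 14744271, minus strand) lies inside its own primary transcripts, the longest of which spans 14743590 to 14745321, and let-7-5p is at 14744234 to 14744255. mir-84 (X, 16022404 to 16022478, minus strand) lies elsewhere on the same chromosome, with miR-84-5p at 16022447 to 16022470, and mir-795 is on chromosome I. Mature sequences were not used here.

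The libraries held 1919348 to 19762103 miRNA counts, and the shallowest was wild type embryo replicate 3. Levels are given as ppm of all miRNA counts in the same library. Extraction notes in the labels speak of mixed-stage animals, so the stage labels were set against markers: the 8 mir-35 family guide strands, which are embryonic, summed to 1402 to 3857 ppm in L4 libraries and to 513588 to 776305 ppm in embryo libraries. lin-4-5p, a larval miRNA, was at 2029 to 4390 ppm in L4 libraries and at 2.11 to 23.2 ppm in embryo libraries. By these markers every library matched its label as embryo or larva. They cannot tell L4 from other larval stages, so the L4 label itself was not tested. Wild type L4 replicate 2 stood apart from replicates 1 and 3: it had the highest mir-35 family sum of the L4 libraries and the lowest let-7-5p and miR-48-5p. Most of that sum was miR-42-3p, at 2461 ppm, against 686 and 509 ppm in replicates 1 and 3. Among wild type L4 libraries, miR-36-3p, miR-40-3p and miR-41-3p were also highest in replicate 2. miR-35-3p, miR-37-3p and miR-39-3p were highest in replicate 3, and miR-38-3p in replicate 1. The part of stage in the results below was not tested.

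miR-48-5p was the most abundant member. It was at 154714 and 129390 ppm in tm5522 L4 libraries, at 129286, 138721 and 124462 ppm in zen17 L4 libraries and at 104197, 64718 and 123694 ppm in wild type L4 libraries. By rank it was among the first 3 of all strands in each of the 8 L4 libraries. In embryos it was at 119, 279 and 205 ppm in zen17 libraries and at 146, 118 and 290 ppm in wild type libraries. Both mutant L4 groups lay above all wild type L4 libraries in ppm, as did 25.9% of strands tested for tm5522 and 10.5% for zen17. For zen17 the gap was narrow, 124462 against 123694 ppm, and with another scaling, given below, both mutant groups overlapped wild type. The embryo groups overlapped.

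let-7-5p, the founding member, came second at L4. It was at 47805 and 45644 ppm in tm5522 L4 libraries, at 23176, 36361 and 21991 ppm in zen17 L4 libraries and at 29966, 11490 and 21644 ppm in wild type L4 libraries. The tm5522 libraries lay above the other 6 L4 libraries, and zen17 and wild type overlapped. Of all strands tested, 25.9% lay apart in that direction against wild type and 28.4% against zen17. In embryos let-7-5p was at 7.76, 34.6 and 13 ppm in zen17 libraries and at 21.1, 7.0 and 29.2 ppm in wild type libraries, which overlapped.

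miR-84-5p was at 15538 and 17942 ppm in tm5522 L4 libraries, at 4407, 6001 and 5121 ppm in zen17 L4 libraries and at 3946, 4898 and 3084 ppm in wild type L4 libraries. In embryos it was at 92.5, 85.7 and 73.1 ppm in zen17 libraries and at 11.2, 11.2 and 46.9 ppm in wild type libraries. It was higher in both tm5522 libraries than in any other L4 library, and higher in all 3 zen17 embryo libraries than in any wild type embryo library. In embryos 17.4% of strands lay apart in that direction. For tm5522 at L4 the share was 25.9% against wild type and 28.4% against zen17. The highest wild type embryo value was that of replicate 3, the shallowest library, where the mir-35 family sum was the lowest of the 6 embryo libraries (513588 ppm). That value rests on 90 counts, against 122 and 86 in replicates 1 and 2. The other members were also highest in replicate 3 among wild type embryo libraries.

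miR-241-5p was at 14207 and 10611 ppm in tm5522 L4 libraries, at 4719, 7972 and 4650 ppm in zen17 L4 libraries and at 10213, 4893 and 6707 ppm in wild type L4 libraries. The tm5522 libraries lay above the rest, as did 25.9% of strands against wild type and 28.4% against zen17. The zen17 and wild type libraries overlapped. In embryos it was at 5.53 to 16.8 ppm in zen17 libraries and at 4.67 to 8.86 ppm in wild type libraries.

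miR-795-5p was the rarest member. It was at 65.6 and 52.4 ppm in tm5522 L4 libraries, at 41.2, 76.2 and 44.9 ppm in zen17 L4 libraries and at 39.2, 27.9 and 21.6 ppm in wild type L4 libraries. Both mutant groups lay above wild type, as did 25.9% of strands for tm5522 and 10.5% for zen17, and overlapped each other. In embryos it was at 5.53, 0.284 and 3.58 ppm in zen17 libraries and at 0.826, 1.17 and 2.08 ppm in wild type libraries, from 3 to 57 counts. The value in zen17 embryo replicate 2 rests on 3 counts, where counting error is large.

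**Figure D1:**
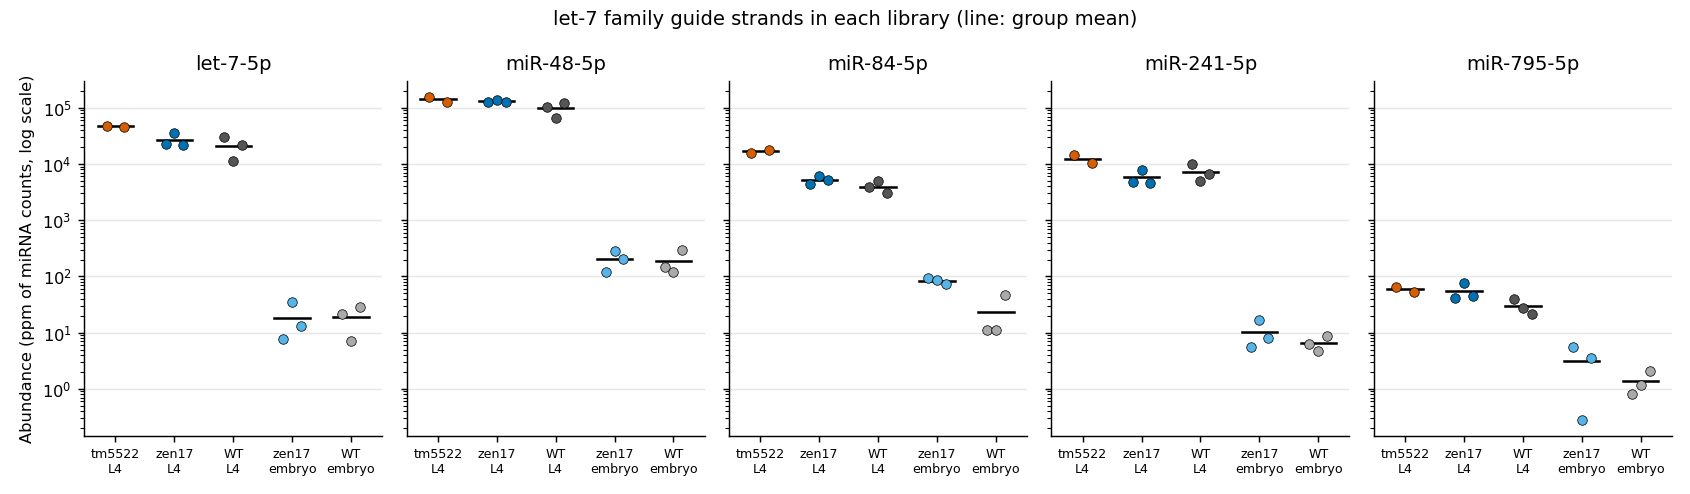
Abundance of each let-7 family guide strand (ppm of miRNA counts, log scale) in each library, as points, with the group mean as a line, for tm5522 L4, zen17 L4, wild type L4, zen17 embryo and wild type embryo libraries. L4 libraries lie above embryo libraries for all 5 members, and miR-84-5p at L4 is at 15538 and 17942 ppm in tm5522 libraries, against at most 6001 ppm in the others.

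In each of the 8 L4 libraries the order by counts was miR-48-5p, then let-7-5p, then miR-84-5p and miR-241-5p, then miR-795-5p. The middle pair changed places: miR-84-5p was above miR-241-5p in both tm5522 libraries, and in wild type and zen17 libraries either could be the higher. Counts of different miRNAs also depend on how well each one is ligated, which counts alone do not show.

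The family became abundant by L4. Its 5 members together averaged 129846 ± 38100 ppm in wild type L4 libraries and 234.8 ± 125 ppm in wild type embryo libraries (SD, n = 3 each), and 169010 ± 17631 ppm in zen17 L4 libraries and 317 ± 93.8 ppm in zen17 embryo libraries (SD, n = 3 each). In both genotypes all L4 libraries lay above all embryo libraries for each of the 5 members, which held for 39.1% of strands in wild type and 36.1% in zen17. All 5 members were called higher in wild type L4 larvae than in wild type embryos by edgeR's quasi-likelihood test (adjusted p under 0.05 over all strands tested), where 40.9% of the 230 strands tested were called higher. The log2 fold change was 10.04 ± 0.85 for let-7-5p (standard error, adjusted p = 1.73e-06), 9.95 ± 0.65 for miR-241-5p, 9.09 ± 0.75 for miR-48-5p, 7.52 ± 0.42 for miR-84-5p and 4.32 ± 0.43 for miR-795-5p. miR-795-5p had 9, 9 and 4 counts in wild type embryos and passed the minimum of 10 counts only through the L4 libraries. Its call is therefore not independent of that filter, though it was also called with no filter on counts.

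In zen17 animals all 5 were again called higher at L4, against 34.0% of 238 strands. The log2 fold changes were 10.53 ± 0.55 for let-7-5p, 9.35 ± 0.48 for miR-48-5p, 9.12 ± 0.43 for miR-241-5p, 5.87 ± 0.36 for miR-84-5p and 3.87 ± 0.70 for miR-795-5p. miR-795-5p again needed the L4 libraries to pass the filter, with 57, 3 and 25 counts in zen17 embryos. The smallest 2 changes were those of miR-84-5p and miR-795-5p in both genotypes. Scaling by total counts in place of TMM (edgeR's default scaling) moved the log2 fold changes of all strands by a median of 0.18 in wild type, far less than these changes. lin-4-5p and miR-237-5p, the lin-4 family that acts in the same pathway, rose by 9.85 ± 0.40 and 8.92 ± 0.39 in wild type and by 7.07 ± 0.40 and 7.31 ± 0.38 in zen17 animals.

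The tm5522 L4 larvae stood out for miR-84-5p. Against wild type L4 larvae it was the single member called, with a log2 fold change of 2.07 ± 0.25 (adjusted p = 0.00648), where 22.4% of 232 strands were called and 10.3% were called higher. Its mean was 16740 ± 1700 ppm in tm5522 libraries (SD, n = 2) and 3976 ± 907 ppm in wild type libraries (SD, n = 3). Fitted without tm5522 replicate 1 or 2, it stayed near this size, at 2.26 (adjusted p = 0.0958) and 1.96 (adjusted p = 0.0858), but was not called; the lone tm5522 library was then assumed to vary like the other group.

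The remaining members were not called against wild type. let-7-5p had a log2 fold change of 1.03 ± 0.53 (adjusted p = 0.191), miR-795-5p of 0.97 ± 0.31 (adjusted p = 0.0635), miR-241-5p of 0.68 ± 0.45 (adjusted p = 0.303) and miR-48-5p of 0.37 ± 0.52 (adjusted p = 0.587). In ppm all 5 were higher in both tm5522 libraries than in all 3 wild type libraries, where 25.9% of all strands tested did not overlap in that direction. In TMM-scaled CPM this did not hold for miR-48-5p, at 187500 in wild type L4 replicate 3 and at 163700 and 124100 in tm5522 libraries. The median log2 fold change over the 5 was 0.97, against -0.09 over all strands tested. Without wild type L4 replicate 2, which lowered the wild type mean of several members, miR-795-5p was called as well (0.73, adjusted p = 0.0217) and the value of miR-48-5p was -0.038.

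The 2 alleles differed for 3 members. Against zen17 L4 larvae, tm5522 L4 larvae had higher miR-84-5p (log2 fold change 1.61 ± 0.18, adjusted p = 0.00018), miR-241-5p (1.04 ± 0.20, adjusted p = 0.0034) and let-7-5p (0.71 ± 0.17, adjusted p = 0.00799), where 38.4% of 229 strands were called and 17.9% were called higher. miR-48-5p (0.014 ± 0.16) and miR-795-5p (0.065 ± 0.24) were not called. let-7-5p was called in 7 of 12 alternatives: it missed the threshold with total counts as the scale (0.78, adjusted p = 0.0509), and when zen17 L4 replicate 1 (0.66, adjusted p = 0.0718) or zen17 L4 replicate 3 (0.59, adjusted p = 0.0546) was left out, among others. For the same 3 members all tm5522 libraries lay above all zen17 libraries, against 28.4% of strands. These values and those against wild type share the tm5522 libraries.

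In zen17 L4 larvae no member was called against wild type, and none of the 228 strands was (0%). At an unadjusted p under 0.05 there were 33 strands, 1 of them a member, and DESeq2 called 0 members. The values were 0.88 ± 0.29 for miR-795-5p (adjusted p = 0.213), 0.45 ± 0.23 for miR-84-5p (adjusted p = 0.340), 0.34 ± 0.43 for miR-48-5p, 0.28 ± 0.43 for let-7-5p and -0.39 ± 0.37 for miR-241-5p. For miR-48-5p and miR-795-5p all zen17 libraries were above all wild type libraries in ppm, where 10.5% of strands did not overlap in that direction. In TMM-scaled CPM the groups overlapped for miR-48-5p. Without wild type L4 replicate 2, the values of let-7-5p and miR-48-5p turned to -0.18 and -0.091, and miR-241-5p was called lower (-0.80, adjusted p = 0.0378).

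In zen17 embryos miR-84-5p was called higher than in wild type embryos, with a log2 fold change of 1.77 ± 0.33 (adjusted p = 0.00393), where 17.9% of 201 strands were called and 10.4% were called higher. Its mean was 83.7 ± 9.84 ppm in zen17 and 23.1 ± 20.6 ppm in wild type embryos (SD, n = 3 each), and the wild type mean was 11.2 ppm without replicate 3. Scaling by total counts shifted the log2 fold changes of all strands by a median of 0.35, and miR-84-5p then had 1.89 (adjusted p = 0.0730) and was not called. let-7-5p (-0.58 ± 0.48), miR-48-5p (-0.26 ± 0.29, and 0.13 with total counts) and miR-241-5p (0.071 ± 0.36) were not called, and miR-795-5p had too few counts to be tested. Without zen17 embryo replicate 2, miR-795-5p was tested and called (1.60, adjusted p = 0.0247). It passed the filter there only through zen17 replicates 1 and 3 (57 and 25 counts). Wild type libraries had 9, 9 and 4 counts, so this call is no support for a difference. It was not called with no filter on counts (1.05, adjusted p = 0.355), nor with a wild type library left out (0.91 to 1.05).

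Of 5 related strands, 4 could be tested in embryos and 3 of them were called higher in zen17. Over all strands tested, 10.4% of 201 were called higher and 17.9% were called in either direction. lin-4-5p was at 15.4, 18.1 and 23.2 ppm in zen17 and at 2.11, 2.33 and 5.21 ppm in wild type embryos, a log2 fold change of 2.28 ± 0.34 (adjusted p = 0.0011). miR-237-5p rose by 1.67 ± 0.35 (adjusted p = 0.00728). The wild type values rest on few counts: 23, 18 and 10 for lin-4-5p and 19, 19 and 7 for miR-237-5p. Of miR-793-3p, miR-794-5p and miR-1821, which some classifications place with the let-7 family, miR-1821 was called (1.09 ± 0.26, adjusted p = 0.0154), miR-793-3p was not (0.91 ± 0.31, adjusted p = 0.0647) and miR-794-5p had too few counts. None of these 5 strands was called in any of the 3 L4 comparisons between genotypes. The mir-35 family, embryonic markers, summed to 587261 ± 51848 ppm in zen17 and 672777 ± 139923 ppm in wild type embryos (SD, n = 3 each), with overlapping libraries. miR-38-3p alone of its 8 strands was called, lower in zen17 (-1.24 ± 0.25, adjusted p = 0.00614). All 8 had negative log2 fold changes with TMM, from -1.24 to -0.22. With total counts as the scale, miR-40-3p (0.32) and miR-42-3p (0.19) were positive.

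Whether the zen17 difference itself changed with stage was tested as an interaction. No member was called, where 4.80% of 250 strands were called and 4.00% were called in the negative direction. At an unadjusted p under 0.05 there was 1 member, miR-84-5p, whose zen17 difference at L4 minus that in embryos was -1.39 ± 0.47 (adjusted p = 0.101), and DESeq2 called it (-1.25, adjusted p = 0.0197). Without wild type embryo replicate 3 it was called (-1.86, adjusted p = 0.00727). The same contrast was called for lin-4-5p (-2.58 ± 0.40, adjusted p = 0.000699), which had only 10 to 23 counts in wild type embryo libraries.

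**Figure D2:**
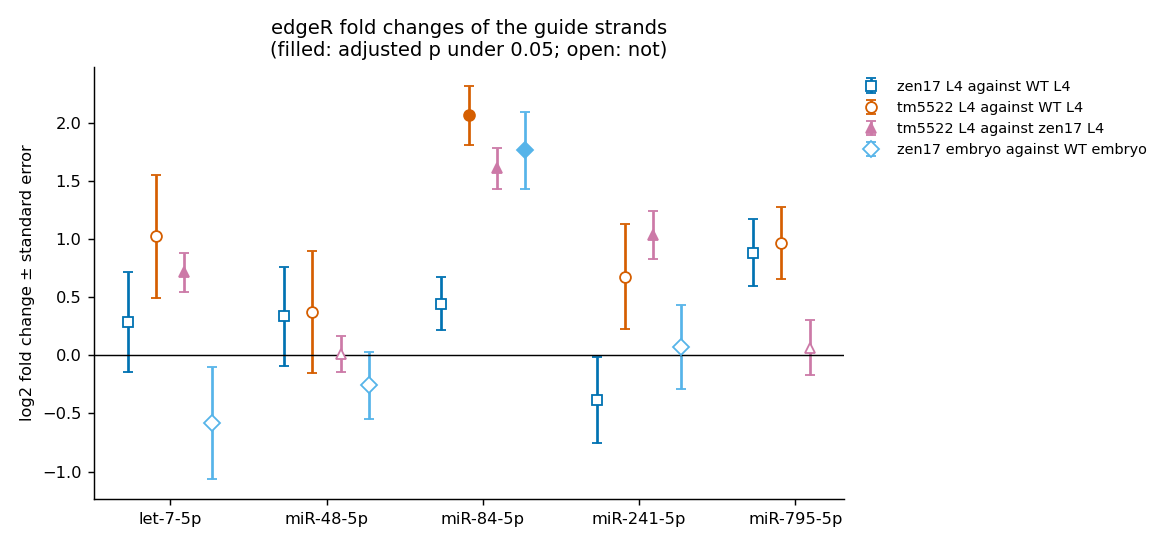
log2 fold changes with standard errors for each let-7 family guide strand in 4 comparisons between genotypes, from edgeR; filled points passed an adjusted p of 0.05 and miR-795-5p was not tested in embryos. miR-84-5p is the member called in zen17 embryos (1.77) and in tm5522 L4 larvae against wild type (2.07).

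The make-up of the family shifted with these changes and is given as a description, since shares of one sum are not independent. miR-48-5p made up 66.6% and 63.5% of family counts in tm5522 L4 libraries, 79.99%, 73.3% and 79.6% in zen17 L4 libraries and 70.2%, 75.2% and 79.7% in wild type L4 libraries. let-7-5p took 20.6% and 22.4% in tm5522 L4 libraries, 14.3%, 19.2% and 14.1% in zen17 L4 libraries and 20.2%, 13.4% and 13.95% in wild type L4 libraries. miR-84-5p took 6.69% and 8.81% in tm5522 L4 libraries, 2.73% to 3.28% in zen17 L4 libraries and 1.99% to 5.69% in wild type L4 libraries. The tm5522 libraries thus had the lowest share of miR-48-5p and the highest shares of let-7-5p and miR-84-5p among the 8 L4 libraries.

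In embryos, miR-84-5p took 40.2%, 20.6% and 24.1% of family counts in zen17 libraries and 6.03%, 7.85% and 12.4% in wild type libraries, without overlap. miR-48-5p took 51.7% to 67.8% in zen17 embryos and 76.9% to 83.1% in wild type embryos. These embryo shares rest on 723 to 4400 family counts a library.

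The neighbours mir-48 and mir-241 did not keep 1 ratio. There were 10.9 and 12.2 counts of miR-48-5p per count of miR-241-5p in tm5522 L4 libraries, 27.4, 17.4 and 26.8 in zen17 L4 libraries and 10.2, 13.2 and 18.4 in wild type L4 libraries. zen17 and wild type overlapped, and the tm5522 values lay within the wild type range and below all zen17 values. Per count of let-7-5p there was 0.297 and 0.232 of miR-241-5p in tm5522 L4 libraries, 0.204 to 0.219 in zen17 L4 libraries and 0.310 to 0.426 in wild type L4 libraries, so that no groups overlapped. These ratios were chosen after the values were seen and are a description.

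**Figure D3:**
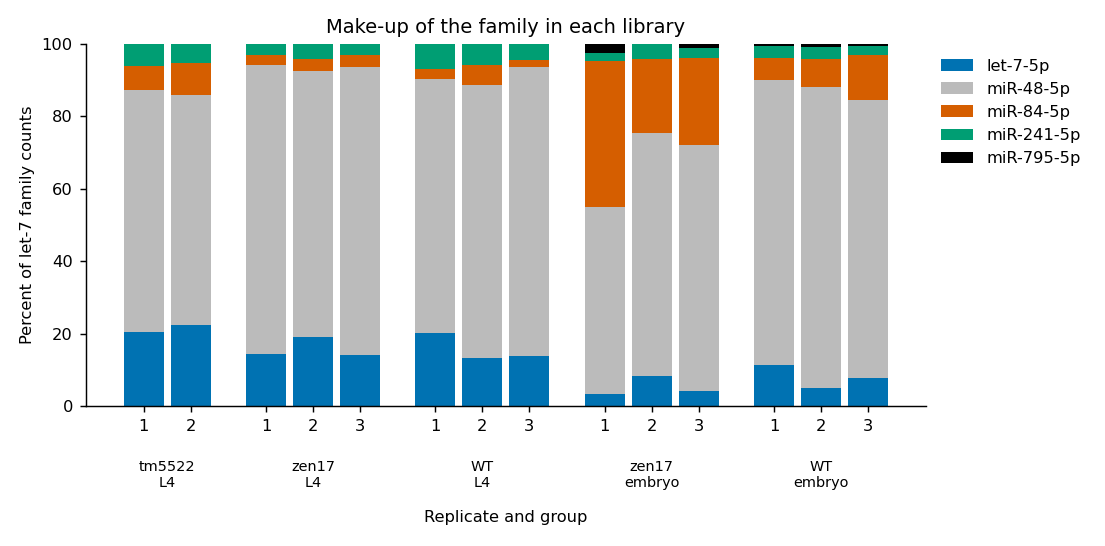
Percent of let-7 family counts taken by each member, as stacked bars, in each library of tm5522 L4, zen17 L4, wild type L4, zen17 embryos and wild type embryos. The miR-84-5p part of the bar is 20.6% to 40.2% in zen17 embryos, against 6.03% to 12.4% in wild type embryos.

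The guide and star strands of a hairpin come from the same precursor. Their ratio does not depend on how libraries are scaled, since both counts are taken from the same library. All 5 star strands were rare at L4. let-7-3p was at 2.95 and 3.41 ppm in tm5522 L4 libraries, at 11.5, 8.67 and 10.5 ppm in zen17 L4 libraries and at 22.9, 15.4 and 9.61 ppm in wild type L4 libraries. Its log2 fold change in tm5522 L4 larvae was -2.31 ± 0.38 against wild type (adjusted p = 0.0140) and -1.80 ± 0.32 against zen17 (adjusted p = 0.00253). In all 6 embryo libraries let-7-3p had 0 counts, against a limit of 3 counts at 0.275 to 1.56 ppm.

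Among the other star strands none was called in tm5522 L4 larvae against wild type. miR-241-3p, the most abundant of them, was at 90.04 and 100.1 ppm in tm5522 L4 libraries, at 104 to 174 ppm in zen17 L4 libraries and at 202, 195 and 110 ppm in wild type L4 libraries (-0.81 ± 0.26 against wild type, adjusted p = 0.0643). Against zen17, miR-795-3p (-1.35 ± 0.28, adjusted p = 0.00455) and miR-84-3p (-0.85 ± 0.23, adjusted p = 0.0148) were lower in tm5522. Over all strands, 38.4% of 229 were called against zen17, 17.9% higher and the rest lower. Against wild type 22.4% of 232 were called, 10.3% higher and the rest lower. miR-48-3p was at 11.6 and 11.2 ppm in tm5522 L4 libraries, at 9.58 to 15.1 ppm in zen17 L4 libraries and at 9.51 to 21 ppm in wild type L4 libraries, and was not called.

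The guide to star ratio of let-7 was 15976 and 13229 in tm5522 L4 libraries, 2007, 4179 and 2089 in zen17 L4 libraries and 1309, 744 and 2245 in wild type L4 libraries. That of mir-84 was 1284 and 1407 in tm5522 L4 libraries, 207, 252 and 285 in zen17 L4 libraries and 190, 286 and 230 in wild type L4 libraries. For mir-241 it was 158 and 106 in tm5522 L4 libraries, 41.8 to 45.9 in zen17 L4 libraries and 25.1 to 61.1 in wild type L4 libraries. For mir-795 it was 19.1 and 20.3 in tm5522 L4 libraries, 5.75 to 9.64 in zen17 L4 libraries and 3.49 to 11.04 in wild type L4 libraries. These 4 ratios were higher in the tm5522 libraries than in any other L4 library, where 34.2% of hairpins lay apart in that direction against wild type and 27.8% against zen17. For mir-48 the ratio was 13272 and 11529 in tm5522 L4 libraries, 9176 to 12951 in zen17 L4 libraries and 4017 to 12968 in wild type L4 libraries, with overlap between tm5522 and both other groups.

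In limma's test of the log2 ratios (0.5 added to each count), those of 4 of the 5 hairpins were called higher in tm5522 than in wild type L4 larvae, where 35.4% of 79 hairpins were called and 20.3% were called higher. The differences in log2 ratio were 3.49 ± 0.56 for let-7 (adjusted p = 0.00447), 2.53 ± 0.47 for mir-84 (adjusted p = 0.00643), 1.65 ± 0.57 for mir-795 (adjusted p = 0.0471) and 1.60 ± 0.55 for mir-241 (adjusted p = 0.0462). mir-48 was not called (0.96 ± 0.59, adjusted p = 0.232). The median over the 5 was 1.65, against 0.46 over the hairpins tested. Without tm5522 replicate 1, 0 of the 5 were called (let-7 at 3.35, adjusted p = 0.0611), and without tm5522 replicate 2, let-7 and mir-84 were.

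Against zen17 the same 4 ratios were called higher in tm5522, where 48.6% of 72 hairpins were called and 22.2% were called higher. They were 2.48 ± 0.40 for let-7 (adjusted p = 0.00294), 2.45 ± 0.32 for mir-84 (adjusted p = 0.000858), 1.55 ± 0.32 for mir-241 (adjusted p = 0.00548) and 1.41 ± 0.34 for mir-795 (adjusted p = 0.00907). mir-48 had 0.14 ± 0.32 (adjusted p = 0.748). Between zen17 and wild type L4 larvae no ratio was called by limma, of the members or of the 79 hairpins (0%). The members' values lay between 0.055 and 1.0, with 0 members at an unadjusted p under 0.05.

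**Figure D4:**
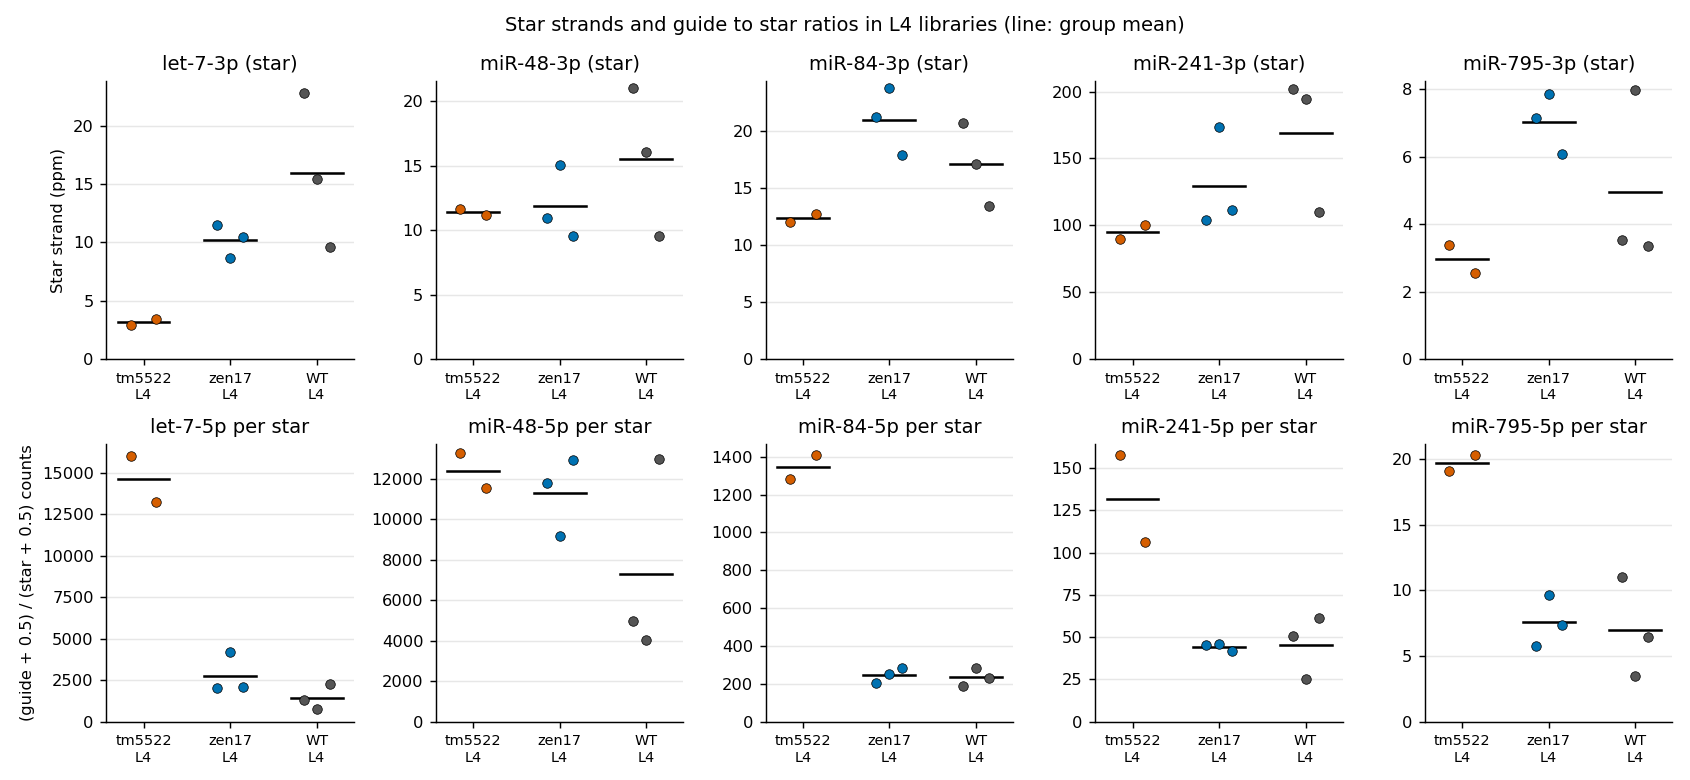
Star strands of the 5 hairpins (ppm, upper row) and guide to star ratios (counts with 0.5 added, lower row) in each L4 library, as points, with the group mean as a line, for tm5522, zen17 and wild type. let-7-3p is at 2.95 and 3.41 ppm in tm5522 libraries, against 8.67 to 22.9 ppm in the others, and the let-7 ratio is 15976 and 13229, against 744 to 4179.

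The guide strands whose pattern over the 8 L4 libraries was most like a member's were listed by Pearson's r of TMM-scaled log2 CPM among 107 guide strands averaging 100 counts or more. The likest was miR-1817-59 for let-7-5p (r = 0.966), miR-229-5p for miR-84-5p (0.973), miR-63-3p for miR-795-5p (0.967), miR-787-3p for miR-241-5p (0.911) and miR-65-5p for miR-48-5p (0.873). Among the members themselves r was highest for let-7-5p with miR-241-5p (0.867) and with miR-48-5p (0.837), and lowest for miR-48-5p with miR-84-5p (0.404). The neighbours miR-48-5p and miR-241-5p had 0.614. The points share libraries, depth and genotype groups, and these values are a description.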

How the data were processed

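Small RNA was size selected on gels, made into libraries with the NEXTflex Small RNA kit and sequenced on an Illumina NextSeq. The submitters' processing notes name cutadapt 1.15 and Bowtie. Which annotation was used and how multi-mapping reads were counted are not given in the sources used here. The authors deposited raw read counts per mature strand in 14 libraries, without normalization, and 30 of the 371 strands were at 0 throughout. Groups come from GEO's labels. No replicates agreed within sampling noise.

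Groups were compared by edgeR 4.0.16 (R 4.3.3), with its quasi-likelihood test and TMM scaling, on the libraries concerned alone. A prior count of 2 was used only for the log2 CPM that went into correlations. A strand was tested if it reached 10 counts in as many libraries as the smaller group holds. P-values were Benjamini-Hochberg adjusted over all strands tested, with a threshold of 0.05, and standard errors were derived from the test statistic. The model for the stage difference of zen17 used its 4 groups. Log2 guide to star ratios went into limma 3.58.1 with 0.5 added to each count. Both tests were first tested on simulated data. By counting error, a strand seen at 0 counts could still have an expected count of up to 3, which is 0.152 to 1.56 ppm. PCR duplicates are not covered by this.

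The members, the related strands and the tests were chosen with earlier results of these data known. The strands named are the 5 members and their stars, lin-4-5p, miR-237-5p, miR-793-3p, miR-794-5p, miR-1821, the mir-35 family and the guide strands most like each member. Each comparison was repeated with DESeq2 1.42.0, with RLE factors or total counts for scaling, with other count filters or pseudocounts, in a joint fit of all libraries, with a replicate block, and without each library. TMM-scaled CPM was set against ppm. Positions are those of WBcel235 (Ensembl). Figures were drawn with matplotlib 3.10.9.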

Additional observations from a re-analysis of the deposited data

How the results depend on the processing

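The calls of all 5 members between stages held in wild type and in zen17 under every alternative run. miR-84-5p was called in zen17 embryos in 12 of 13 alternatives, in tm5522 L4 larvae against wild type in 10 of 12 and against zen17 in 12 of 12. Against zen17, miR-241-5p was called in 11 of 12 and let-7-5p in 7 of 12. In zen17 embryos total counts as the scale called 0 members, against 1, and miR-48-5p then turned to 0.13. With a library left out 1 to 2 were called, and miR-241-5p ranged from -0.25 to 0.35. The second call was miR-795-5p, which had passed the filter only through zen17 libraries. In zen17 L4 larvae 0 to 1 were called with a library left out, let-7-5p ranged from -0.18 to 0.51 and miR-48-5p from -0.091 to 0.82. In tm5522 L4 larvae against wild type DESeq2 called 2, the replicate block 3 and fits with a library left out 0 to 2, where miR-48-5p ranged from -0.038 to 0.93. Against zen17, the joint fit of all 14 libraries called 1 in place of 3 (let-7-5p at 0.81, adjusted p = 0.288, and miR-241-5p at 1.14, adjusted p = 0.0552, were not called), total counts as the scale 2 and fits with a library left out 2 to 3. There, miR-48-5p was -0.070 and miR-795-5p -0.023 with at least 100 counts, and with a library left out they ranged from -0.044 to 0.25 and from -0.057 to 0.33. In the interaction DESeq2 and the joint fit called 1, and fits with a library left out 0 to 1. miR-795-5p was 0.0075 there with DESeq2, 0.037 with RLE, 0.11 with the replicate block and -0.84 to 0.66 with a library left out. For guide to star ratios of tm5522 against wild type, keeping hairpins with a mean of at least 1 count gave 2 in place of 4, and a library left out 0 to 4. Ratios of zen17 against wild type ranged from -0.060 to 0.24 for mir-84, from -0.33 to 0.31 for mir-241 and from -0.18 to 0.65 for mir-795 with a library left out. The causes were not tested.

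Replicate numbers are shared between groups, but same-numbered libraries did not deviate together (correlations from -0.339 to 0.155), so the block is an alternative. In tm5522 against wild type L4 larvae it called let-7-5p (1.56, adjusted p = 0.00671) and miR-48-5p (1.01, adjusted p = 0.0331) beside miR-84-5p. It gave 2 in place of 3 for tm5522 against zen17 L4 larvae, where let-7-5p was not called (adjusted p = 0.118), and 3 ratios in place of 4 against wild type and against zen17. With TMM-scaled CPM, the 25 group means of the members' ppm moved by less than 1 SD. With a library left out, 3 of them moved by over 1.5 times: the mean of miR-84-5p in wild type embryos was 11.2 without replicate 3, against 23.1 ppm, that of let-7-5p in zen17 embryos 10.4 without replicate 2, against 18.5 ppm, and that of miR-795-5p in zen17 embryos 1.93 without replicate 1, against 3.13 ppm.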
